A study of Mus musculus with 3 samples.

Results

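Macrophages of the mouse sciatic nerve 5 days after a nerve crush were compared, gene by gene, with macrophages of the uninjured nerve. Each side was 1 droplet single-cell RNA library (10x Genomics chemistry v1) from C57BL/6 mice, an inbred strain, and the 2 sides are called day 5 and steady state. Cells were used if they had at least 200 detected genes and at most 10% of their counts from mitochondrial genes. This kept 2059 of 2059 cell barcodes at day 5 and 728 of 731 at steady state, together 2787 of the 5580 such cells in the 3 libraries of the series. The other library, taken 1 day after crush (2793 cells, also C57BL/6), is given only as a level set beside the other two. The labels name no transgene, deletion or drug in any library. The sources used here do not give the number, age and sex of the animals or how the cells were sorted.

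A crush cuts the nerve fibres inside an intact sheath. Beyond the crush the axons and their myelin then break down, which is called Wallerian degeneration. Resident macrophages and monocytes that enter from the blood take up this debris and release factors that act on Schwann cells, fibroblasts and vessels. In the uninjured nerve, macrophages of the outer sheath (the epineurium) and macrophages between the fibres (the endoneurium) are known to differ in their surface lectins and receptors.

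The unit was the UMI, a tag that counts each captured RNA molecule once. The kept cells held 1656510 UMIs at steady state, 7963091 at day 1 and 5524496 at day 5, with medians of 2238.5, 2555 and 2473 UMIs per cell. UMIs were summed over the cells of a library and scaled to a total of 1000000, which gives CPM, counts per 1000000. A lower sum can mean fewer cells with the RNA or less RNA per cell, and a sum cannot tell them apart. With 1 library a side there was no replicate and no test. Ratios carry an exact 95% interval that covers counting error only, so differences between animals, crushes or preparations are not in it. Free RNA in the droplets can add low levels of a gene to either sum, and its part was not tested. Genes at 0 were set to 3 UMIs (1.81 CPM at steady state, 0.543 CPM at day 5), and the ratio is then a lower bound.

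Macrophage markers were present in both libraries. Lyz2 was at 20924 CPM at steady state and 24196 CPM at day 5, Cd68 at 1031 and 724 CPM, Csf1r at 773 and 488 CPM, and Adgre1 (F4/80) at 402 and 232 CPM. Defining markers of other cells were at 0. Cd3e of T cells, Ms4a1 of B cells, Ly6g of neutrophils, Sox10 of Schwann cells and Cldn5 of endothelium had no UMI in either library. The 11 Schwann cell and myelin markers summed to 332 CPM at steady state and 72.9 CPM at day 5, of which Pmp22 made 278 and 46.7 CPM. The 10 fibroblast markers summed to 188 and 163 CPM, and the 12 dendritic cell markers to 887 and 733 CPM. Bst2 made 452.76 and 645.85 CPM of these dendritic cell sums, so the rest of that list was lower at day 5. Of its 4 measured markers, 3 were lower and only Bst2 was not. The part of these cells in the results was not tested beyond 1 check, in which 1 steady-state and 3 day 5 cells with 3 or more markers of another cell type were left out and the counts of genes moved by less than 1.5 times. The 4 Y-linked genes looked at (Ddx3y, Eif2s3y, Uty, Kdm5d) had no UMI in either library, and Xist was at 444 and 429 CPM. The libraries shared 3 cell barcodes.

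Most of the transcriptome at day 5 lay within 2-fold of steady state, with long tails on both sides. The 2585 genes that reached 50 CPM on one side or the other were counted. At day 5, 204 of them (7.89%) had a level at least 2-fold above steady state, and 247 (9.56%) were lower by 2-fold or more. A further 968 genes (37.4%) were near the steady-state level, meaning that the whole interval of the ratio lay within 1.5-fold either way, and the other 1166 lay in between. The middle 50% of genes lay between log2 -0.41 and 0.49 around a median of 0.07. The tails reached far: 54 genes were higher and 72 lower by 4-fold or more, and 14 and 17 passed 16-fold. When the libraries were scaled by the median of the gene ratios, which moved every log2 value by -0.09, the split was 155 higher and 288 lower.

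The higher genes together made up 2.79% of the UMIs at steady state, 10.8% at day 1 and 7.75% at day 5. The lower genes made up 17.1%, 5.10% and 5.51%. Of the 96 genes that reached 2000 CPM in one of the 2 libraries, 6 were higher, 18 lower and 54 near. Of the 1120 genes whose higher level was between 50 and 100 CPM, where counting error is widest, 81 were higher, 105 lower and 342 near.

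**Figure D1:**
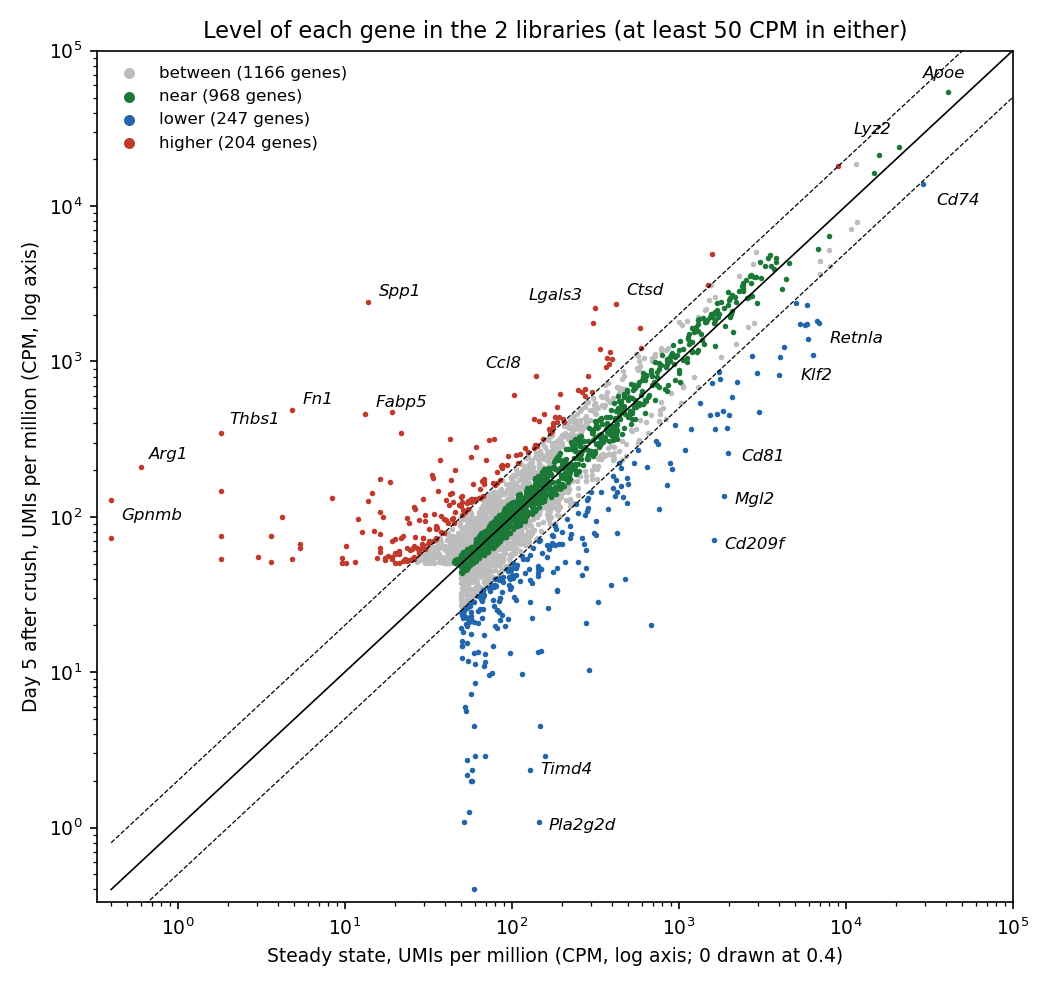
Each point is 1 of the 2585 genes, with its level at steady state on the x axis and at day 5 on the y axis (both in CPM, log axes). The solid line is equal level and the dashed lines are 2-fold. Red marks the 204 higher genes, blue the 247 lower, green the 968 near and grey the 1166 in between. Arg1, Thbs1, Spp1 and Fn1 lie far above the lines, and Pla2g2d, Timd4 and Cd209f far below.

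Genes for secreted and matrix proteins of wounds led the higher side. Spp1 encodes osteopontin, a secreted matrix and signalling protein (chr5:104435118-104441050, GRCm38, protein-coding). Spp1 was at 13.9 CPM at steady state, 8178 CPM at day 1 and 2406 CPM at day 5, and its day 5 level was 173-fold that of steady state (115 to 273). Fn1, which encodes fibronectin (chr1:71585520-71653200), was at 4.83, 1084 and 487 CPM in the same order, 101-fold higher at day 5 (51.1 to 234). Thbs1, which encodes thrombospondin-1 (chr2:118111876-118127133), had 3 UMIs at steady state and 1921 at day 5, a ratio of 192 (65.6 to 932). Its 3 steady-state UMIs lay in 1 cell. Lgals3, which encodes the galactose-binding lectin galectin-3, was at 315, 5083 and 2214 CPM, 7.03-fold higher (6.44 to 7.68). For these 4 genes the day 5 level lay between the steady-state and day 1 levels. Of the 11 wound matrix genes with at least 50 CPM, 6 were higher, 1 was lower and 3 were near, with a median log2 of 1.05 over the 13 with at least 10 CPM, against 0.01 over all 6876 such genes. The lower member was F13a1, the A chain of clotting factor XIII, at 749 and 295 CPM. The near members were Lgals1 (1570 and 2026 CPM), Tgfbi (461 and 343 CPM) and Ecm1 (104 and 116 CPM).

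Arg1 had the largest ratio of all genes with at least 100 CPM. It encodes arginase-1, which splits arginine into ornithine and urea (chr10:24915221-24927484). Arg1 had 1 UMI at steady state, 35699 UMIs at day 1 (4483 CPM) and 1156 UMIs at day 5 (209 CPM), a ratio of 347 with a very wide interval (62.1 to 13703). Odc1, the next enzyme toward polyamines, was at 10.3, 132 and 65.2 CPM, 6.35-fold higher. Other genes of alternative activation went both ways. Retnla, which encodes a secreted resistin-like protein, was at 6939, 84.3 and 1778 CPM, 3.90-fold lower at day 5. Chil3 was at 9.66, 702 and 54.1 CPM, 5.60-fold higher, and its 16 steady-state UMIs lay in 2 cells. Of the 9 measured genes in this list, 3 were higher, 1 was lower and 1, Sat1, was near.

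Genes for lipid uptake and storage were mostly higher. Gpnmb, a membrane glycoprotein of lysosomes (chr6:49036546-49070929), had no UMI at steady state, against 136 CPM at day 1 and 129 CPM at day 5, and was at least 71.4-fold higher against the floor of 3 UMIs (the exact interval starts at 57.9). Fabp5, a fatty acid carrier, was at 13.3, 1466 and 462 CPM, 34.8-fold higher (22.9 to 55.7). Hilpda, a lipid droplet protein that slows lipolysis, was at 8.45, 557 and 132 CPM, 15.7-fold higher (9.27 to 28.8). Plin2, which coats lipid droplets, was at 195, 1301 and 616 CPM. Cd36, a receptor for fatty acids and oxidised lipids, went the other way, at 263, 67.7 and 42.0 CPM, 6.25-fold lower. In all, 5 of the 7 measured members of this list were higher and 1 lower.

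Cholesterol handling showed a similar direction in its enzymes and pump, while the main carrier was near. Lpl, the lipoprotein lipase, was at 30.2 CPM at steady state and 102 CPM at day 5 (3.38-fold), and Abca1, the pump that moves cholesterol out of the cell, at 15.7 and 54.5 CPM (3.47-fold). Nceh1 and Soat1, which remove and add the fatty acid of cholesterol esters, were 3.65-fold and 2.18-fold higher. Apoe, the most abundant transcript of both libraries and the carrier of lipid between cells (chr7:19696109-19699188), was at 40937 CPM at steady state, 10814 CPM at day 1 and 53930 CPM at day 5, a ratio of 1.32 (1.31 to 1.33). None of the 21 cholesterol synthesis genes reached 50 CPM. Their 14 members with at least 10 CPM had a median log2 of -0.90.

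Of 10 measured cathepsins and legumain, the proteases of the lysosome, 3 were higher, 1 was lower and 4 were near. Ctsd, the aspartic protease cathepsin D, was at 423, 2076 and 2354 CPM, 5.56-fold higher at day 5 (5.16 to 6.01). Ctss, which trims the invariant chain of MHC class II, was at 1595, 4662 and 4916 CPM, 3.08-fold higher (2.96 to 3.21). Ctsl was at 251, 1943 and 659 CPM, 2.63-fold higher. Ctsb (3749 and 3913 CPM), Ctsh (1200 and 1150 CPM) and Ctsc (2112 and 1548 CPM) were near, and Ctsf was 7.64-fold lower at 76.1 and 9.96 CPM. Another list held membrane proteins, hydrolases and related factors of the lysosome. Of its 21 measured genes, 10 were near and 8 in between, and 2 were higher (Gpnmb and Psap). The 1 lower gene, Tfe3, encodes a transcription factor. None of the 11 proton pump subunits that were measured was past 2-fold.

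Several receptors and signals were at their highest of the 3 libraries at day 5. Trem2, a receptor for lipids and apoptotic debris (chr17:48346401-48354147), was at 386, 604 and 1156 CPM in the order steady state, day 1 and day 5, 3.0-fold higher at day 5 (2.76 to 3.25). Ms4a7, a membrane protein of tissue macrophages, was at 368, 479 and 919 CPM, 2.50-fold higher. Ccl8, a ligand of several CC chemokine receptors (chr11:82115185-82116799), was at 139, 209 and 808 CPM, 5.80-fold higher (5.08 to 6.65). Gdf15, a stress-induced member of the TGF-beta family, was at 12.1, 17.6 and 96.3 CPM, 7.98-fold higher (5.11 to 13.2). Cd72 was at 40.4, 34.8 and 128 CPM, and Ccrl2 at 70.0, 136 and 231 CPM. Cxcr4, the receptor for CXCL12, was at 14.5, 139 and 142 CPM, 9.81-fold higher (6.54 to 15.4), so its day 1 and day 5 levels were close. Cxcl12, its ligand, was at 54.3 CPM at steady state and 2.17 CPM at day 5.

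**Figure D2:**
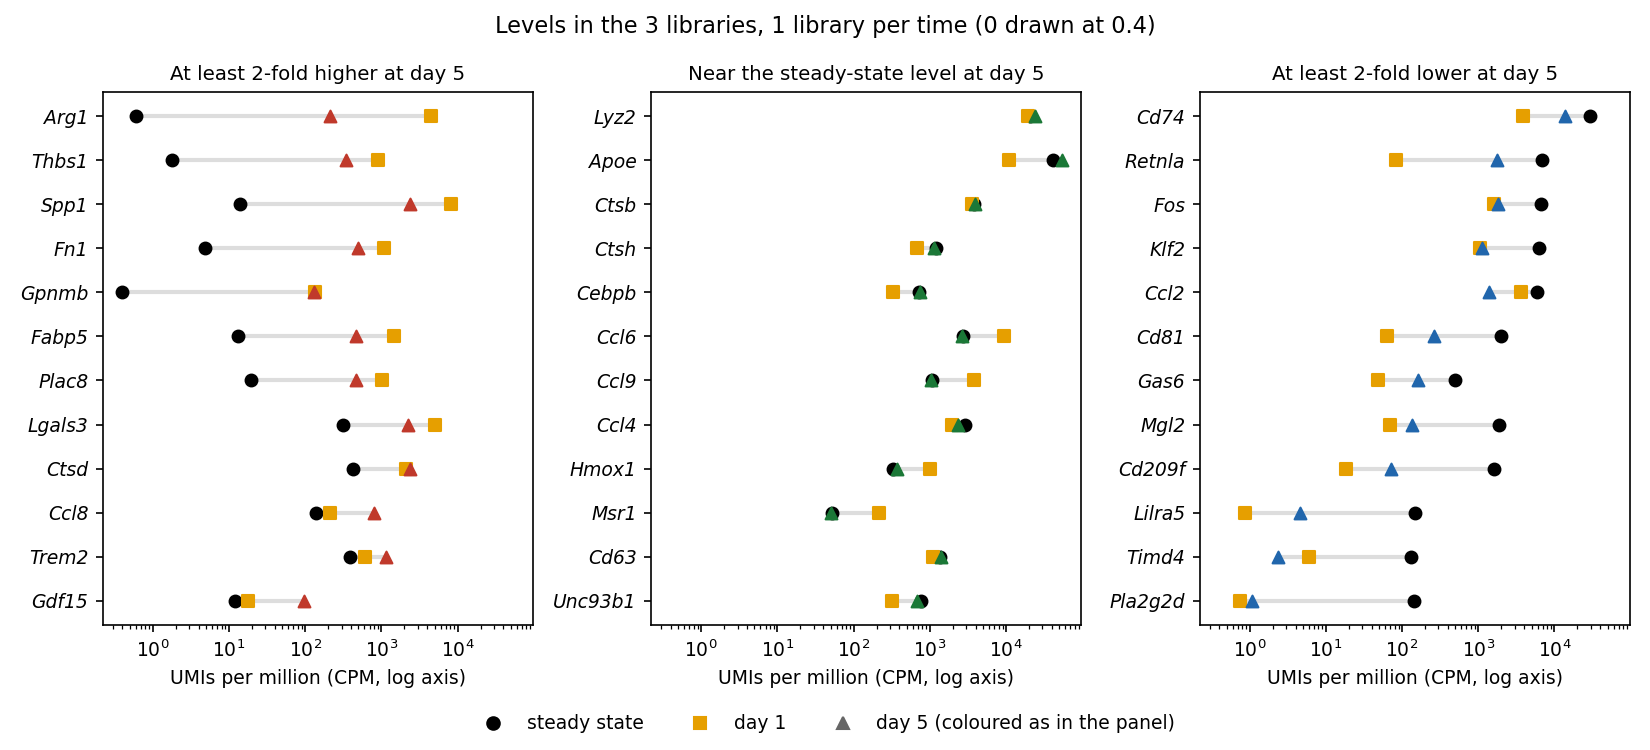
Levels of 36 genes in the 3 libraries (CPM, log axis; 1 library per time, so no error bars; 0 is drawn at 0.4). Circles are steady state, squares day 1 and triangles day 5. In the left panel Ccl8, Trem2 and Gdf15 are highest at day 5 while Arg1, Spp1 and Fabp5 are highest at day 1. In the middle panel the circle and triangle lie close together for every gene.

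Genes known from monocytes and granules were higher in 7 of 13 measured cases, Fn1 and Thbs1 of the wound matrix list among them. Plac8 was at 19.3, 1017 and 471 CPM, 24.4-fold higher at day 5 (17.2 to 35.7). Ly6c2, the surface marker of classical monocytes, was at 13.9, 251 and 126 CPM, 9.05-fold higher. Hp, which encodes haptoglobin, was at 4.23, 307 and 99.2 CPM, 23.5-fold higher (11.3 to 58.7). At steady state Ly6c2 had 23 UMIs in 3 cells and Hp 7 UMIs in 2 cells, so these ratios rest on very few cells. Ccr2, the receptor that draws monocytes from blood, was less different, at 223, 315 and 333 CPM. Vcan, also a monocyte marker, had no UMI at steady state and reached 1.63 CPM at day 5. In this list 1 gene, F13a1, was lower and none was near. Ly6a, a stem cell and interferon-responsive surface antigen, had 3 UMIs at steady state and 806 at day 5, a ratio of 80.6 (27.5 to 391). Its 3 steady-state UMIs lay in 1 cell. Ly6 family members resemble each other in sequence, so reads may have been split among them.

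Glycolysis genes and genes of the respiratory chain differed in how many passed 2-fold. Slc16a3, which exports lactate, had 3 UMIs at steady state, and 196 and 53.4 CPM in the injured libraries. Hif1a, the oxygen-sensing transcription factor, was at 12.7, 215 and 80.4 CPM, 6.34-fold higher (4.10 to 10.3). Among glycolytic enzymes, Pgam1 was 2.57-fold higher and Gpi1 near. Of 11 measured glycolysis and hypoxia genes 6 were higher and none lower. Of 46 measured genes of the respiratory chain and ATP synthase, 4 were past 2-fold (Cox7a2, Atp5g3, Cox6c, Cox7b), 10 were near and none was lower, with a median log2 of 0.60 over 47 genes. The 4 are a share close to the 7.89% of all genes. Of the 8 measured transcripts of the mitochondrial genome 7 were near and 1 in between.

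Cytokines and interferon targets were mixed. Of 10 measured cytokine and interleukin-1 pathway genes, 6 were higher and 2 lower. Osm, an interleukin-6 family cytokine, was at 29.6, 239 and 130 CPM, 4.39-fold higher. Il1rn, the natural blocker of the interleukin-1 receptor, was at 21.1, 190 and 60.1 CPM, 2.84-fold higher, and Il1b itself was at 397, 1166 and 1043 CPM. The median log2 of the list over 17 genes with at least 10 CPM was -0.54, below 0, so its low-level members lay on the other side. Of 11 interferon-stimulated genes, 4 were higher, among them Zbp1, Irf7 and Isg15, and 1, Irf1, was lower at 186, 14.9 and 47.1 CPM. Fth1, the heavy chain of the iron store ferritin, was at 9026, 20789 and 18225 CPM, 2.02-fold higher (1.98 to 2.05), and the light chain Ftl1 was near at 15912, 25165 and 21262 CPM.

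Calls close to 2-fold depended on the scaling. With the median-of-ratios scale Fth1, Psap, Cox6c, Cox7b, Ccr1, Cd44, Nfkb1, S100a4, Snrpe, Pilra and Ms4a6d lay between log2 0.91 and 0.98, under the threshold of 1. With each cell weighted equally, Atp5g3 was at log2 0.96, and the lower genes Pf4 and Pros1 at -0.85 and -0.94. Without mitochondrial and ribosomal protein genes in the total, Nfkbia was at -0.99, and Cyba, Il4ra and Scarb2 passed 2-fold higher.

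On the lower side, the markers of epineurial macrophages were nearly all lower. Of 15, 14 were at least 2-fold lower and 1, Ccl8, was higher, with a median log2 of -3.55. Together they made 13934 CPM at steady state, 588 CPM at day 1 and 3171 CPM at day 5. Retnla made 6939 and 1778 CPM of the first and last of these sums. Pla2g2d, a secreted phospholipase (chr4:138775735-138782046), was at 145, 0.753 and 1.09 CPM, 133-fold lower at day 5 (ratio 0.00750, 0.00272 to 0.0166). Lyve1, a receptor for hyaluronan on perivascular macrophages, was at 279, 27.9 and 20.8 CPM, 13.4-fold lower. Cd163, the receptor for haemoglobin bound to haptoglobin, was at 330, 44.6 and 28.2 CPM, 11.7-fold lower. Mgl2, a lectin for galactose and N-acetylgalactosamine, was at 1868, 69.6 and 137 CPM, 13.7-fold lower. The list was set with earlier results of these data known, so the count is a description.

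The Cd209 lectins of this group are a gene cluster on chr8, and the 4 with the largest change lie within chr8:3871824-4137707 (GRCm38). Cd209f was at 1618, 18.3 and 70.8 CPM, 22.9-fold lower. Cd209g was at 681, 10.2 and 20.3 CPM, 33.6-fold lower. Cd209d was at 292, 11.8 and 10.3 CPM, 28.3-fold lower, and Cd209b at 159, 2.64 and 2.90 CPM, 54.8-fold lower. All 4 were low in both injured libraries. These genes are paralogs, and the sources used here do not say how reads were split between similar copies.

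Other genes of long-lived tissue macrophages were lower too, while the pan-macrophage genes were near or in between. Timd4, a receptor for phosphatidylserine on dying cells (chr11:46810800-46844332), was at 129, 6.03 and 2.35 CPM, 54.9-fold lower. Cd81, a tetraspanin, was at 1985, 62.5 and 259 CPM, 7.67-fold lower (ratio 0.130, 0.122 to 0.139). Of the 22 resident macrophage genes measured, 5 were lower (Timd4, Cd81, Cd163, Lyve1 and Folr2), 1 was higher (Ctss), 6 were near and 10 in between. Genes that peripheral macrophages share with microglia also split: Siglech (51.9 and 1.09 CPM), St3gal6 (151 and 13.8 CPM) and Gpr34 (133 and 22.3 CPM) were lower and Trem2 was higher. Cx3cr1, the fractalkine receptor, was in between at 116 CPM at steady state and 178 CPM at day 5, with 33.3 CPM at day 1.

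Genes for the uptake of dead cells were lower in 4 of 13 measured cases, against 9.56% of all genes, and higher in none. Another 3 were near and 6 in between. The median log2 over the 17 members with at least 10 CPM was 0.19, against 0.01 over all such genes. Gas6, which links phosphatidylserine to the receptors Axl and Mertk, was at 500, 48.0 and 162 CPM, 3.09-fold lower, and Pros1, a related bridge, at 76.1, 16.7 and 36.2 CPM. Timd4 and Cd36 were the other lower members. Fcgrt, the receptor that recycles IgG, was 3.21-fold lower at 1189, 162 and 370 CPM. C1qb was near at 7959, 2289 and 6435 CPM. Its partners C1qa (7911 and 5216 CPM) and C1qc (7053 and 3647 CPM) were in between, and the 3 chains are made to be assembled together. Itgam, a chain of complement receptor 3, was 2.70-fold higher, and Fcgr4 4.00-fold higher at 43.5 and 174 CPM.

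The immediate early genes, transcription factors and signalling brakes that respond within minutes to stimuli and to tissue dissociation, were largely lower. Of 26 measured, 18 were lower, 2 were higher (Dusp2 and Fosl2) and 1, Gadd45b, was near. Their sum was 48819 CPM at steady state, 13004 CPM at day 1 and 15058 CPM at day 5. Fos was at 6725, 1586 and 1827 CPM, 3.68-fold lower, and Jun at 3996, 597 and 816 CPM, 4.90-fold lower. Klf2, a transcription factor of quiescent myeloid cells, was at 6367, 1039 and 1107 CPM, 5.75-fold lower. Ier2 was at 3042, 368 and 474 CPM, 6.42-fold lower. The heat shock gene Hspa1a was 5.31-fold lower at 849 and 160 CPM and its co-chaperone Dnajb1 4.92-fold lower, yet Hspa5, Hsp90aa1 and Hsp90ab1 were near. The sources used here do not give the time from tissue to droplet, and its part in these levels was not tested.

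Promoters of 4 of these lower genes, chosen after their values were seen, show the sites that serum response factor and the cyclic AMP factor CREB are known to read. RefSeq promoter windows ran from 250 bases before to 50 after the start (GRCm38.p6), and 217 of 288 named genes matched one. Capitals mark the CArG box in Egr2 and Zfp36, and the letters TGACGTCA, the cyclic AMP response element, in Dusp1 and Ppp1r15a. Both strands were searched, none of the motifs searched contains another, and sequences run 5′ to 3′ on the gene's strand.
Egr2, chr10:67537474-67537523, plus strand: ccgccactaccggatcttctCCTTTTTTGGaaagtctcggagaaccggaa
Zfp36, chr7:28379257-28379306, minus strand: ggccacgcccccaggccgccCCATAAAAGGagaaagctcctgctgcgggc
Dusp1, chr17:26508588-26508635, minus strand: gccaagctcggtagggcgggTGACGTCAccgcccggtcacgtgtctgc
Ppp1r15a, chr7:45526269-45526300, minus strand: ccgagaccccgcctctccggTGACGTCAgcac
Egr2 was at 313, 64.0 and 79.1 CPM, Zfp36 at 1687, 471 and 459 CPM, Dusp1 at 4272, 1099 and 1233 CPM, and Ppp1r15a at 452, 103 and 157 CPM. All 4 were at least 2-fold lower at day 5. The CArG box was in 2 of 24 immediate early promoters (8.33%) and in 1.81% of all 27025 genes with a promoter, and TGACGTCA was in 3 of 24 (12.5%) and 2.03%. Among genes that reached 50 CPM, the shares were 1.95% for the CArG box and 3.80% for TGACGTCA. By class, TGACGTCA was in 4.23% of lower, 4.59% of near and 1.89% of higher genes with a promoter. The CArG box was in 4.76%, 2.16% and 1.89% in the same order. Btg2, the other immediate early gene with TGACGTCA, was in between and is not shown. A match describes the letters of the window and is no sign of binding.

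One higher gene is shown for contrast, Isg15, an interferon-stimulated ubiquitin-like protein at 94.2, 416 and 215 CPM. Its promoter holds the interferon response core GAAANNGAAA, in capitals, in 3 overlapping copies. Ifit3 and Bst2 also hold the core and were in between.
Isg15, chr4:156200855-156200916, minus strand: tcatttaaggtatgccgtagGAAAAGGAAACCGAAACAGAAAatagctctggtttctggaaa
The core was in 12 of 23 promoters of interferon-stimulated genes (52.2%), in 3.99% of all genes with a promoter and in 8.18% of the 159 higher genes with one. The ETS motif GAGGAAGT, which PU.1 reads, was in 8.81% of the promoters of these 159 genes, 5.29% of 189 lower genes, 3.11% of 740 near genes and 3.69% of all.

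Among chemokines, lower genes outnumbered higher ones. Of 11 measured CC chemokines 6 were lower, 2 were higher (Ccl8 and Ccl5) and 3 were near. Ccl2, which attracts monocytes through Ccr2, was at 5993, 3639 and 1401 CPM, 4.28-fold lower. Ccl24, an attractant of eosinophils, was at 766, 638 and 113 CPM, 6.80-fold lower, and Ccl12 was 5.19-fold lower at 1937, 728 and 373 CPM. Ccl6 and Ccl9 were near steady state at day 5 after a high day 1 level, Ccl6 at 2750, 9545 and 2648 CPM and Ccl9 at 1061, 3855 and 1028 CPM. Ccl4 was near at 2940, 1972 and 2370 CPM. Of 6 CXC chemokines 4 were lower. Cxcl2, an attractant of neutrophils, was at 5842, 3483 and 1744 CPM, 3.35-fold lower, and Pf4 at 5066, 8434 and 2374 CPM, 2.13-fold lower. Cxcl16 was the higher one, at 139 and 292 CPM.

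Lipid mediators and NF-kappaB feedback genes were lower in part. Hpgd, which inactivates prostaglandins, was at 480, 6.28 and 39.8 CPM, 12.1-fold lower (ratio 0.0830, 0.0711 to 0.0965), and Alox5, the enzyme that starts leukotriene synthesis, at 77.9 and 14.8 CPM, 5.25-fold lower. Its activating partner Alox5ap was near at 1282 and 1159 CPM. The inhibitors Nfkbid and Nfkbiz were 3.64-fold and 2.46-fold lower. The metallothioneins Mt1 and Mt2, which bind zinc, were 3.04-fold and 3.24-fold lower, while the antioxidant enzyme Prdx5 was 2.80-fold higher and Gpx1 near. Mmp9, a gelatinase, was 11.9-fold lower at 116, 36.4 and 9.77 CPM. Sepp1, the secreted selenium carrier, was at 5741, 465 and 1712 CPM, 3.35-fold lower.

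Antigen presentation differed by class. The MHC class II presentation list summed to 62734 CPM at steady state, 13755 CPM at day 1 and 40072 CPM at day 5. This sum includes the protease Ctss, at 1594.9, 4662.1 and 4916.3 CPM in the same order, and Ifi30. Both were higher in the injured libraries, so the other members together were lower there by more than the sum shows. Cd74, the invariant chain, had the largest loss of all genes in CPM, at 29248, 3813 and 13839 CPM, 2.11-fold lower (ratio 0.473, 0.468 to 0.479). The chains H2-Eb1 (7042, 979 and 4450 CPM), H2-Ab1 (11745, 1810 and 7848 CPM) and H2-Aa (10833, 1562 and 7076 CPM) were in between. H2-DMa, which helps load peptide, was near at 1023, 229 and 738 CPM, and Ifi30, a thiol reductase of the same pathway, was 2.92-fold higher. Of 14 measured MHC class I genes none was past 2-fold in either direction and 7 were near, with H2-D1 at 3281, 2868 and 4091 CPM.

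**Figure D3:**
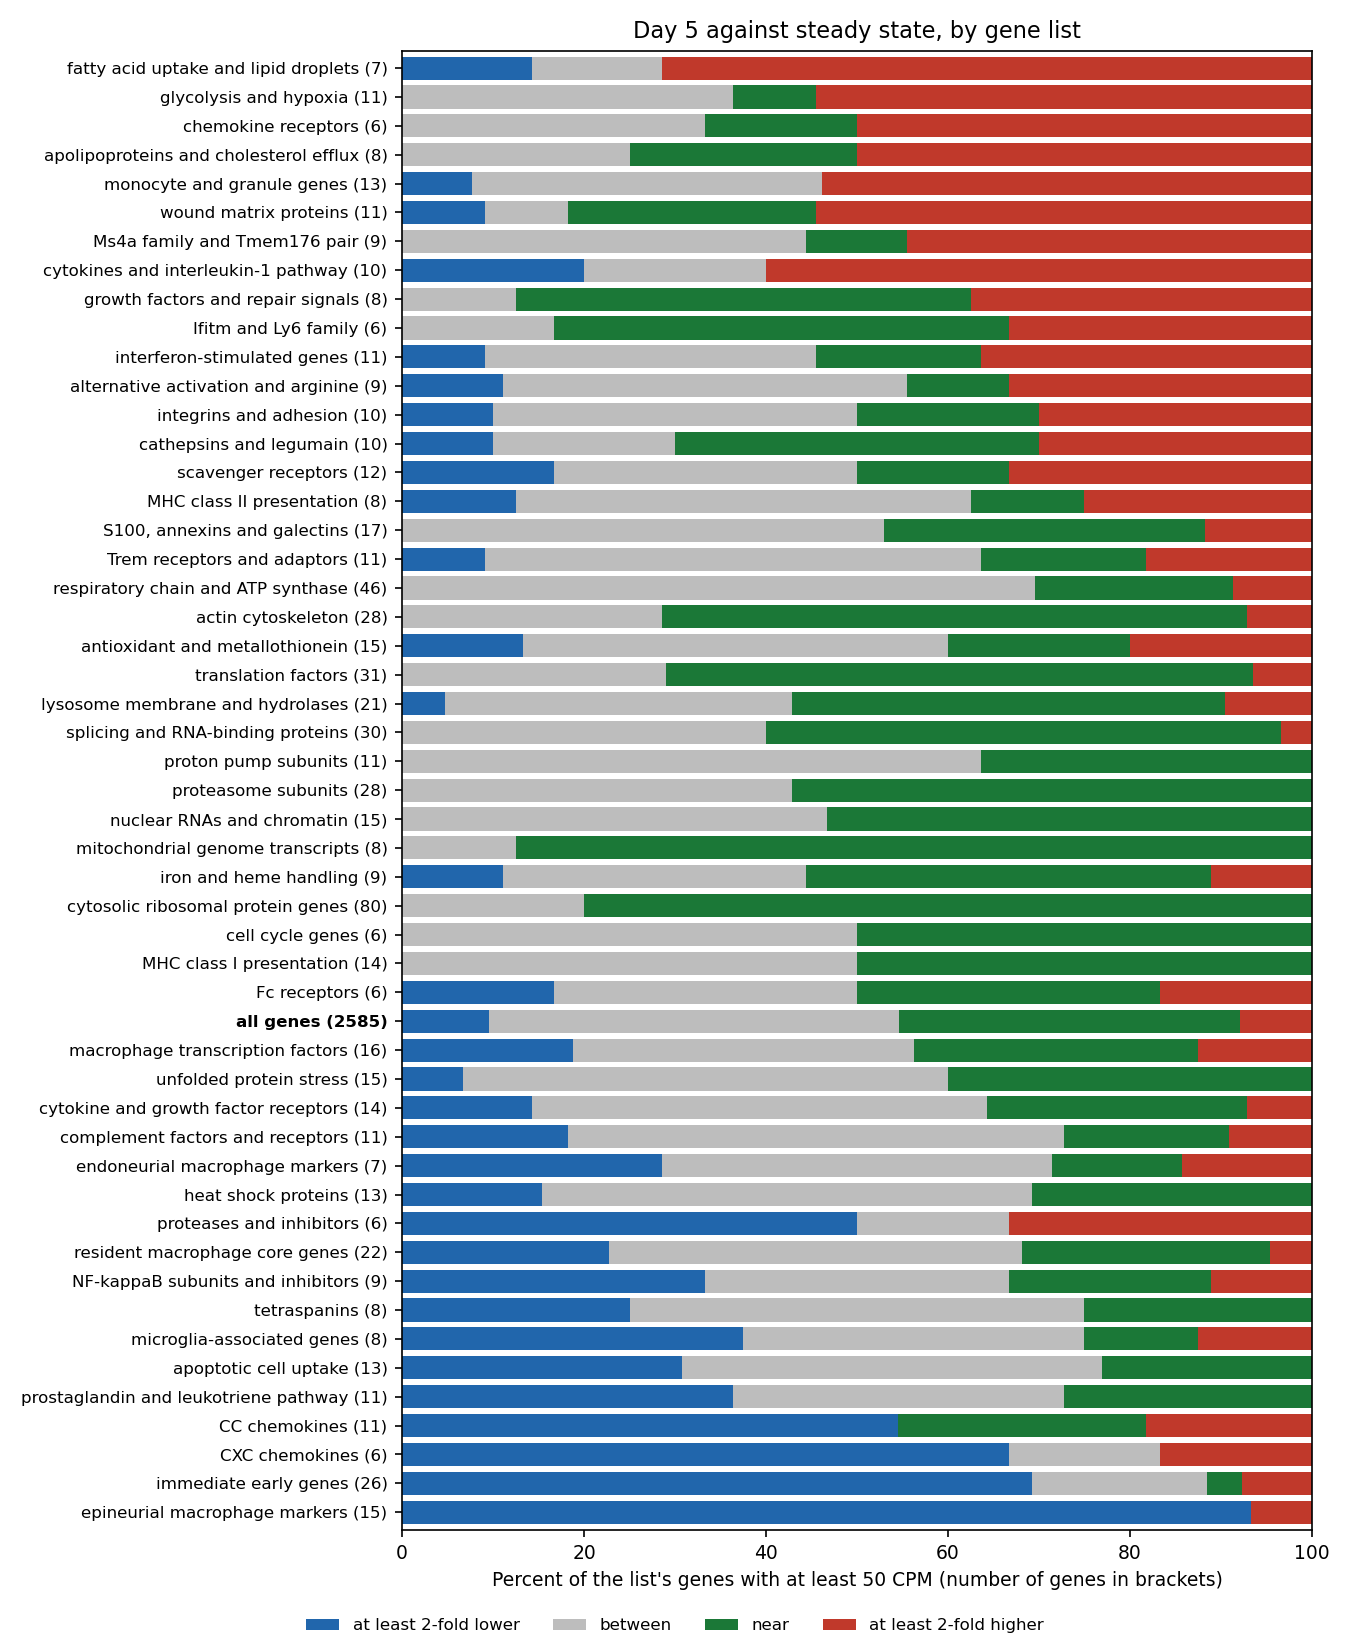
Each bar is 1 gene list with at least 6 genes at 50 CPM or more (the number in brackets), split into the percent of its genes at least 2-fold lower (blue), in between (grey), near (green) and at least 2-fold higher (red) at day 5. The bar of all 2585 genes is in bold type. Epineurial markers are nearly all blue, ribosomal protein genes mostly green, and the fatty acid and glycolysis lists mostly red.

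Several lists of the basic machinery of the cell had more of their genes near than the 37.4% of all genes, although they hold only a part of the 968. The respiratory chain and ATP synthase list did not, with 10 of 46 near. The share near also depended on level. It was 30.5% of genes whose higher level was between 50 and 100 CPM and 56.25% of those over 2000 CPM. The lists were not matched for level. Of 80 measured cytosolic ribosomal protein genes 64 were near and none was past 2-fold, although their sum was 12.2% of all UMIs at steady state and 15.3% at day 5. Of 28 proteasome subunits 16 were near and none past 2-fold. Of 31 translation factors 20 were near and 2 higher (Eif4g1 and Eif3a), and of 28 actin genes 18 were near and 2 higher (Tmsb10 and Ezr). Splicing and RNA-binding proteins had 17 of 30 near and 1 higher, Snrpe. Actb was at 2709, 3628 and 3213 CPM, Eef1a1 at 2217, 2082 and 2418 CPM, and the nuclear RNA Malat1 at 14884, 18897 and 16364 CPM. These 3 ratios lay between 1.09 and 1.19. Of 6 measured cell cycle genes 3 were near, among them Pcna at 54.3 and 60.5 CPM, and none was past 2-fold.

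Some core myeloid genes were near and others were not. Of the 22 resident macrophage genes 6 were near, and of 16 macrophage transcription factors 5, both smaller shares than the 37.4% of all genes. Lyz2, which encodes lysozyme (chr10:117277331-117282321), had a ratio of 1.16 (1.14 to 1.17). The signalling adaptors Fcer1g (3432 and 4640 CPM) and Tyrobp (2837 and 3496 CPM) had ratios of 1.35 and 1.23. Spi1, which encodes PU.1, the transcription factor macrophages depend on, was at 411, 366 and 354 CPM, and Zeb2 at 261, 209 and 302 CPM. Their ratios were 0.862 (0.790 to 0.942) and 1.16 (1.04 to 1.29). In contrast Mef2c and Klf4, also macrophage transcription factors, were 2.53-fold and 3.09-fold lower and Id2 4.34-fold higher at 45.9 and 199 CPM. Of 5 measured Toll-like receptor genes and adaptors none was past 2-fold, and Tlr2 was near at 117 and 125 CPM. Of all genes only 7.89% were higher and 9.56% lower, so in a list this small that count says little. Myd88 was just short of 2-fold lower at log2 -0.98, and past it at -1.08 by the median-of-ratios scale.

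Several near genes had a different level at day 1. Cebpb, a transcription factor of inflammatory and repair macrophages, was at 715 CPM at steady state, 332 CPM at day 1 and 741 CPM at day 5, a day 5 ratio of 1.04 (0.971 to 1.11). Unc93b1, which carries Toll-like receptors to endosomes, was at 761, 316 and 687 CPM. Hmox1, which breaks down heme, was at 327, 993 and 375 CPM, and Msr1, the class A scavenger receptor, at 51.3, 212 and 49.96 CPM. All comparisons with steady state share its 1 library, so day 1 and day 5 differences from it are not independent of each other.

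The sums were spread unevenly over cells, which a library total does not show. At day 5, 50% of the Malat1 UMIs lay in the 557 cells richest in it, and 50% of the Lyz2 UMIs in 413 cells, of 2059. The same share of the Fn1 UMIs lay in 197 cells, of the Thbs1 UMIs in 159, of the Spp1 UMIs in 105 and of the Arg1 UMIs in 60. At steady state 50% of the Spp1 UMIs lay in 4 of 728 cells and of the Fn1 UMIs in 2 cells. These genes had only 23 and 8 UMIs there, and few UMIs can lie only in few cells. The intervals of the ratios count UMIs and do not allow for their grouping in cells. Trem2 and Lgals3 were broadly spread at day 5, with 50% of their UMIs in 312 and 235 cells. Ly6c2 was narrower, with 50% in 20 cells, and so were the remaining Cd209f UMIs, with 50% in 11 of 2059 cells against 38 of 728 at steady state. Retnla had 50% of its UMIs in 39 of 2059 cells at day 5 and in 44 of 728 at steady state. For Ccl8 these were 53 of 2059 and 12 of 728 cells, from 4466 and 231 UMIs. The 2 libraries differ in cell number, so the numbers of cells do not compare directly. For some genes a few cells made the level: 50% of the Ccl5 UMIs at day 5 lay in 2 cells, and 50% of the Ccl17 UMIs in 1 cell in each library. Hmox1, near by its sum, had 50% of its UMIs in 39 of 2059 cells at day 5 and in 57 of 728 at steady state.

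**Figure D4:**
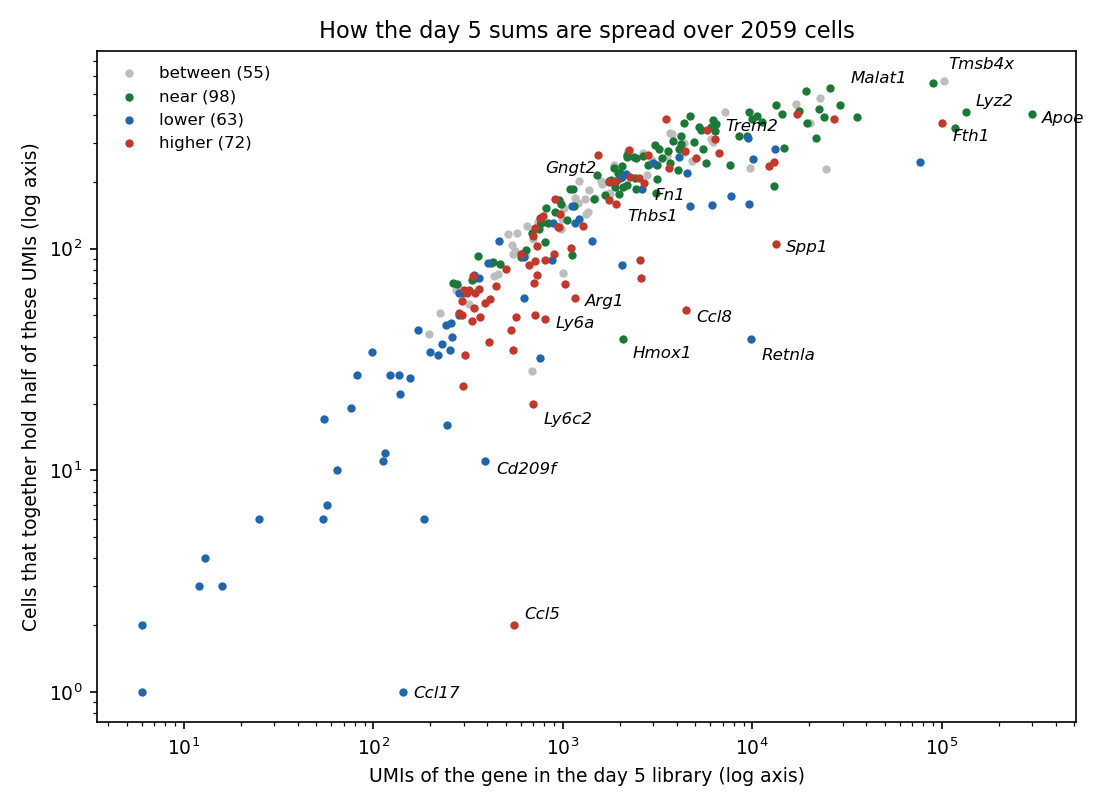
Each point is 1 of the 288 named genes, with its UMIs in the day 5 library on the x axis and the number of cells that together hold 50% of them on the y axis (log axes), coloured by class. Genes below the main band come from few cells. Ccl5 (2 cells), Ccl17 (1 cell), Cd209f (11 cells), Ly6c2 (20 cells) and Retnla (39 cells) lie below it, and Malat1 and Tmsb4x are highest.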

How the data were processed

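The deposited tables hold counts of UMIs per gene and cell barcode, not normalized. Cell Ranger 2.0.2 and the build mm10 (the same as GRCm38) are named in the submitters' processing notes. The sources used here do not say how barcodes were called or how free RNA and doublets were handled, and no doublet caller was run, so doublets remain possible. A pooled table of the 3 libraries was not used.

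Each library had 27998 genes. UMIs of kept cells were summed and scaled to CPM in Python 3.11.15 (pandas 2.3.3, scipy 1.17.1). Intervals of ratios are exact conditional binomial 95% intervals. They were tried on simulated counts drawn by the model the interval assumes, without grouping of UMIs in cells. This checks the computation and not how well the intervals suit these data. With 1 library a side, no p-value was computed. List counts use genes that reached 50 CPM on one side or the other, and list medians those that reached 10 CPM.

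Named genes were the 12 largest ratios each way among those reaching 100 CPM, the 8 largest CPM differences each way, the 8 most abundant near genes, and from each of 61 lists up to 4 most changed and 3 most abundant near members. Predicted, ribosomal protein, mitochondrial, immunoglobulin and hemoglobin genes were not eligible, and markers of other cells were. Plin2, Il1b, Isg15, Ifit3, Btg2, Dusp1, Dusp2, Fosl2, Egr2, Zfp36, Ppp1r15a, F13a1, Folr2, Cxcl16, H2-Ab1 and H2-Aa were named after their values were seen. Members and lists were chosen with earlier results of these data known. Coordinates are from GENCODE M21. Alternatives changed the scaling, the cell filter, the level minimum and the fold. Values of a few genes are not reported here.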

Additional observations from a re-analysis of the deposited data

How the results depend on the processing

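No paired analysis was possible because each side is 1 library. Of the 288 named genes, none that was past 2-fold changed direction under the 8 other scalings and cell sets tried. Of these 8, leaving out the barcodes found in both libraries was chosen after the data were seen. Genes under 2-fold were not counted here. The median-of-ratios scale and the total without mitochondrial and ribosomal protein genes moved log2 values by only -0.09 and 0.05. Leaving out shared barcodes, cells with 3 markers of another cell type or cells over 3 times the median UMIs removed at most 12 cells of a library. Dropping the cell filter added 3 cells. In these settings a change of direction was hardly possible. The median-of-ratios shift of -0.09 turned the sign of near genes such as Cebpb, at log2 0.05 by the main scale. Lowering the level minimum to 10 CPM gave 677 higher and 761 lower genes of 6876, and raising it to 100 CPM gave 123 higher, 142 lower and 626 near of 1465. A 4-fold threshold gave 54 higher and 72 lower. Asking that the whole interval lie past 2-fold gave 111 higher and 175 lower. Leaving mitochondrial and ribosomal protein genes out of the total gave 262 higher, 258 lower and 1066 near. Weighting each cell equally gave 206 higher and 269 lower, with no interval and so no near count. Keeping cells with at least 500 genes and at most 5% mitochondrial UMIs, which left out 129 steady-state and 367 day 5 cells, gave 216, 250 and 950. The median log2 ratio of proteases and inhibitors was 1.47 over 13 members at 10 CPM or more and -1.054 over the 6 at 50 CPM or more. Depth limits the steady-state side most, where 3 UMIs stand for 1.81 CPM.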

Other observations

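Some genes listed here under clone or model numbers, and so not eligible to be named above, had large gains. In the order steady state, day 1 and day 5, Gm42418 was at 306, 1118 and 1761 CPM. AF251705 was at 103, 421 and 607 CPM, and AY036118 at 137, 376 and 427 CPM. Abi3, an actin regulator, had no UMI at steady state, against 30.8 and 72.6 CPM in the injured libraries, and was at least 40.1-fold higher at day 5 against the floor of 3 UMIs (the exact interval starts at 32.4). It was singled out after its value was seen.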
